A study of Mus musculus with 53 samples.

Results

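Heat shock proteins and chaperonins keep other proteins folded. Hsp70 proteins hold unfolded chains in cycles of ATP binding, J-domain proteins (the DNAJ family) hand them their clients, and Hsp110 and BAG proteins release the nucleotide so that the client can leave. Hsp90 proteins finish the folding of signalling proteins, small heat shock proteins hold aggregating proteins, and the chaperonin TRiC folds actin and tubulin inside a closed chamber, while the transcription factor Hsf1 raises the genes of this network when unfolded protein builds up. In spinocerebellar ataxia type 3 (SCA3) the protein ataxin-3 carries an expanded glutamine tract and forms aggregates, and chaperones are known to bind such proteins.

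The transcripts of 44 such genes were examined in 4 regions of the brain in mice with and without the SCA3 transgene, out of 12372 genes in the count table. They were taken by symbol from a list of 45 heat shock and chaperonin genes. Hspb1 is not analysed here. The SCA3 mice were male MJD84.2 mice on a C57BL/6 background, hemizygous for a human ATXN3 transgene whose CAG repeat is expanded. This transgene is driven by its own human promoter in all tissues, next to the mouse Atxn3 gene, so it models added mutant protein in a single transgenic line rather than a change at the mouse gene. The controls were male wild-type C57BL/6 mice. Neither genotype was treated, and both had gone through beam walk and rotarod tests at younger ages. All mice were aged 74 to 77 weeks. There were 53 libraries of 14 mice. Wild-type mice gave 8 libraries of brainstem and of striatum and 7 of cerebellum and of cortex. SCA3 mice gave 5 libraries of striatum and 6 of every other region.

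Values are given in CPM, the usual scaling of a gene's count by its library total, after adjusting library totals by TMM, a scaling that aligns the bulk of the genes. Library totals lay between 31.7 and 76.7 M counts, and all 44 genes were well covered, the lowest count of any of them in any library being 125 (Hspa1b). RNA integrity numbers (RIN) ran from 5.7 to 9.0, both extremes lying in striatum. The summed markers of cerebellum (3 of 5 listed genes were in the table) reached 2638 to 3732 CPM in cerebellar libraries and at most 378 CPM in the other regions. The 9 markers of striatal projection neurons ran from 2035 to 8950 CPM in striatal libraries, against 607 to 3719 CPM in cortex and at most 518 CPM elsewhere. The cortical excitatory neuron markers (3 of 5 listed genes in the table) ran from 413 to 1797 CPM in cortical libraries. They reached 690 CPM in striatum, so these 2 regions overlapped. None of the 4 listed brainstem markers was in the table, so that label was not checked against markers of its own. Some striatal libraries stood apart: the 10 thalamus markers summed to between 128 and 2371 CPM in wild-type striatum and to between 130 and 376 CPM in SCA3 striatum, the highest library being that of wild-type mouse 7267059. In brainstem the libraries of wild-type mice 7267055 and 9083373 and SCA3 mice 9083514 and 9083515 had thalamus sums of 988 to 1071 CPM, against 601 to 834 CPM in the other 10. Their oligodendrocyte marker sums were 10280 to 12200 CPM, overlapping the 12010 to 23530 CPM of the other 10. The thalamus markers also summed to 1199 to 1510 CPM in the cerebellar libraries, so they are not particular to thalamus.

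Together the 44 genes took between 0.635% and 1.06% of all counts in a library. The median share in wild-type libraries was 0.899% in brainstem, 0.842% in striatum, 0.795% in cortex and 0.726% in cerebellum. Per kilobase of annotated exon (merged exons of GENCODE vM21), the level in wild-type mice averaged over the 4 regions was highest for Hsp90ab1, the constitutive cytosolic Hsp90, at 545 CPM per kb. The constitutive Hsp70 Hspa8 followed at 167 CPM per kb, the inducible Hsp90aa1 at 131 and Hsp90b1, the Hsp90 of the endoplasmic reticulum, at 125.5. The chaperonin subunits lay between 20.3 (Cct3) and 61.2 CPM per kb (Cct8). At the lower end were Dnajb14, a J protein of the endoplasmic reticulum membrane, at 1.502 CPM per kb, and the stress-inducible Hsp70 genes Hspa1a at 2.56 and Hspa1b at 2.92. On this scale Hsp90ab1 exceeded every other member in each of the 4 regions.

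To ask how the chaperone network differs between brain regions, each wild-type region was compared with the mean of the other 3 regions. A gene was called when its false discovery rate (FDR, the Benjamini-Hochberg adjusted p of edgeR) was below 0.05 and the log2 difference at least 0.5. In brainstem 5 of the 44 genes were higher (11.4%, against 11.9% of all genes) and 2 were lower (4.55% against 11.3%). In cerebellum 2 were higher (4.55% against 14.2%) and 7 lower (15.9% against 19% of all genes). Cortex had 3 higher (6.82% against 11.6%) and 3 lower genes (6.82% against 8.03%), and striatum 2 of each direction (4.55% against 10.1% higher and 6.7% lower among all genes). These 26 calls fell on 13 genes, and the other 31 genes passed in no region. None of these shares was above that of all genes. Of the 44 genes, 26 had their highest per-kilobase level in brainstem and 26 their lowest in cerebellum, and the median log2 difference of the 44 was 0.21 in brainstem and -0.21 in cerebellum, against -0.01 and -0.02 over all genes.

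The members called higher in brainstem were the small heat shock genes Hspb8 and Cryab, their partner Bag3, the inducible Hsp90aa1 and the Hsp110 gene Hspa4l. Bag3 (chr7:128523616-128546981, plus strand, GRCm38) encodes a co-chaperone that joins Hspb8 and Hsp70 and steers clients to autophagy. Its level in wild-type brainstem ranged from 16.1 to 45.9 CPM with a median of 36.5, and in cerebellum from 22.8 to 35.0 CPM with a median of 27.9. Striatum held 9.06 to 22.3 CPM (median 13.6) and cortex 7.14 to 11.7 CPM (median 10.6). All cerebellar libraries lay above all striatal and cortical ones, while the lowest brainstem library, of mouse 7267055, fell into the striatal range. The log2 difference from the other regions was 1.18 ± 0.14 (SE, FDR 1.47e-17) in brainstem, 0.70 ± 0.15 (FDR 1.6e-06) in cerebellum, -0.62 ± 0.14 (FDR 8.77e-05) in striatum and -1.26 ± 0.15 (FDR 5.55e-14) in cortex. The order was brainstem, cerebellum, striatum, cortex, and of the neighbours in this order brainstem and cerebellum did not pass the threshold (log2 0.36, FDR 0.0599). The deviations of Bag3 from its group means had r = 0.592 with those of the oligodendrocyte markers described with Cryab. The 4 brainstem libraries with high thalamus sums held the lowest brainstem values of Bag3 (16.1 to 32.0 CPM). Without them, a choice made after the data were seen, the brainstem difference was 1.33 for Bag3, 1.24 for Hspb8 and 1.12 for Cryab.

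Hspb8 (chr5:116408491-116422864, minus strand), the small heat shock protein that Bag3 binds, was higher in brainstem by a log2 difference of 1.08 ± 0.15 (FDR 6.22e-14). Wild-type brainstem libraries held 19.98 to 43.9 CPM (median 33.2), against 13.5 to 19.4 CPM in cerebellum, 9.03 to 24.4 CPM in cortex and 10.9 to 18.2 CPM in striatum. Every brainstem library was above every cerebellar and striatal one, and 1 cortical library, of mouse 7267055, overlapped the lowest of brainstem. That cortical library also held 1078 CPM of the choroid plexus markers, against a wild-type cortical median of 52.3 CPM. Hspb8 was also called lower in striatum (log2 -0.56 ± 0.15, FDR 0.000629), although cerebellum, cortex and striatum did not pass the threshold against each other (FDR 0.155 to 0.585). The deviations of Hspb8 had r = 0.675 with those of 8 astrocyte markers, which summed to a median of 6730 CPM in wild-type brainstem and 4985 to 5658 CPM in the other regions. The part of astrocytes was not tested.

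Cryab (chr9:50751325-50756636, plus strand) encodes alpha-B-crystallin, a small heat shock protein that oligodendrocytes also express. In wild-type brainstem it ranged from 151 to 267 CPM (median 238) and in striatum from 99.1 to 285 CPM (median 151). Cortex held 65.9 to 135 CPM (median 96.6) and cerebellum 64.3 to 108 CPM (median 90.4), so that brainstem lay wholly above both of these. The log2 difference was 1.02 ± 0.12 (FDR 7.78e-17) in brainstem, -0.84 ± 0.13 (FDR 2.03e-09) in cerebellum and -0.59 ± 0.13 (FDR 4.29e-05) in cortex. The 12 markers of mature oligodendrocytes moved in the same order for brainstem and striatum, with wild-type medians of 20580 CPM in brainstem, 9334 in striatum, 5358 in cerebellum and 4712 in cortex. Over the 53 libraries, after removing the group means, the correlation of Cryab with the mean of these markers was 0.891 (Pearson r, a description over libraries that share mice). In bulk tissue fewer cells of a type and less RNA per cell cannot be told apart, and the part of oligodendrocytes in the Cryab differences was not tested. Cryab overlaps Hspb2 on the opposite strand and the counting did not separate strands.

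Of the remaining brainstem calls, Hsp90aa1 was higher by 0.57 ± 0.08 (FDR 4.96e-13), with 616 to 837 CPM in wild-type brainstem (median 664) and medians of 426 CPM in cerebellum, 464 in cortex and 467 in striatum. Against each other the remaining 3 regions did not pass the threshold (FDR 0.104 to 0.729). Hspa4l, a nucleotide exchange factor of the Hsp110 group, was higher in brainstem (0.56 ± 0.09, FDR 3.81e-09) and lower in cortex (-0.58 ± 0.10, FDR 7.55e-08). Its median was 240 CPM in brainstem, 213 in cerebellum, 157 in striatum and 139 in cortex. All 7 chaperonin subunits were above 0 in brainstem (log2 0.18 for Cct3 to 0.41 for Cct8) and below 0 in cerebellum (-0.36 for Tcp1 to -0.04 for Cct5), and none reached the minimum difference.

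Cerebellum held the lowest levels of several inducible genes. Hsph1 (chr5:149614287-149636376, minus strand), the Hsp110 protein that disaggregates together with Hsp70, ranged from 113 to 227 CPM in wild-type cerebellum (median 171). The other 3 regions together ranged from 305 to 541 CPM, so that no cerebellar library reached them. The log2 difference of -1.24 ± 0.09 (FDR 2.15e-34) was the largest of a member in cerebellum. Hsph1 was also called higher in striatum (0.53 ± 0.09, FDR 4.47e-09), where its median was 427 CPM, but no pair among brainstem, cortex and striatum passed the threshold (FDR 0.095 to 0.670). Dnajb1, the J protein that drives Hsp70 on aggregates, gave 33.1 to 48.6 CPM in cerebellum and 51.2 to 81.3 CPM in the other regions, again without overlap (log2 -0.65 ± 0.10, FDR 2.06e-09). Hsp90ab1 behaved alike, with 1203 to 1307 CPM in cerebellum against 1575 to 2107 CPM elsewhere, but its log2 difference of -0.49 fell just short of the minimum. The inducible pair was lower too, with log2 differences of -0.59 ± 0.19 (FDR 0.00417) for Hspa1a and -0.83 ± 0.30 (FDR 0.0113) for Hspa1b. Against striatum alone neither passed (FDR 0.452 for Hspa1a and 0.211 for Hspa1b).

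The remaining cerebellar calls were Hspa2 (-0.72 ± 0.10, FDR 4.66e-11), Hspa12a (-0.65 ± 0.11, FDR 5.97e-08) and, in the other direction, Hspa14 (0.58 ± 0.04, FDR 7.83e-55). Hspa14 is the Hsp70 of the ribosome-associated complex. It gave 51.7 to 62.4 CPM in cerebellum, above all libraries of the other regions (33.6 to 42.1 CPM). It was the 1 member of 44 wholly above them in cerebellum, where 11.2% of all genes were. Its gene overlaps the annotated gene Gm45902 on the same strand, so reads of the shared part cannot be assigned. Hsf1 itself had its lowest level in brainstem (36.0 to 44.5 CPM, median 39.7) and its highest in cerebellum (51.9 to 62.3 CPM, median 55.2), without overlap of those 2 regions. Its log2 difference was -0.37 in brainstem and 0.27 in cerebellum, under the minimum in both.

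The highest member of the cortical comparison was Dnajb5, a cytosolic J protein (chr4:42949814-42959425, plus strand). It ranged from 87.4 to 192 CPM in wild-type cortex (median 126), from 70.5 to 120 CPM in striatum (median 95.5), from 57.6 to 63.8 CPM in cerebellum and from 34.5 to 41.7 CPM in brainstem. Brainstem lay wholly below all other regions, as it did for 1 of the 44 members (Dnajb5) and for 3.42% of all genes. Cortex was higher by a log2 difference of 1.14 ± 0.10 (FDR 4.39e-31) and brainstem lower by -1.27 ± 0.10 (FDR 2.72e-32), and all 6 pairs of regions differed (FDR at most 0.000487). Across libraries the deviations of Dnajb5 correlated with those of 9 immediate early genes, which mark recent neuronal activity (r = 0.714), and these genes summed to a median of 512 CPM in wild-type cortex and 656 CPM in striatum against 150 CPM in brainstem and 215 CPM in cerebellum. Their part in the regional difference was not tested. Hspa2, an Hsp70 best known from the testis, was higher in cortex (0.82 ± 0.10, FDR 4.92e-16) and striatum (0.51 ± 0.10, FDR 3.23e-07) and lower in both other regions, with medians of 49.6, 44.1, 24.4 and 24.0 CPM in cortex, striatum, brainstem and cerebellum. Neither cortex against striatum (FDR 0.129) nor brainstem against cerebellum (FDR 0.568) passed the threshold for Hspa2. Hspa1b was called higher in cortex (0.83 ± 0.30, FDR 0.0066), with 7.51 to 19.8 CPM in wild-type libraries. Cortex passed against cerebellum (FDR 0.0014) but not against striatum (FDR 0.0817) or brainstem (FDR 0.212).

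**Figure D1:**
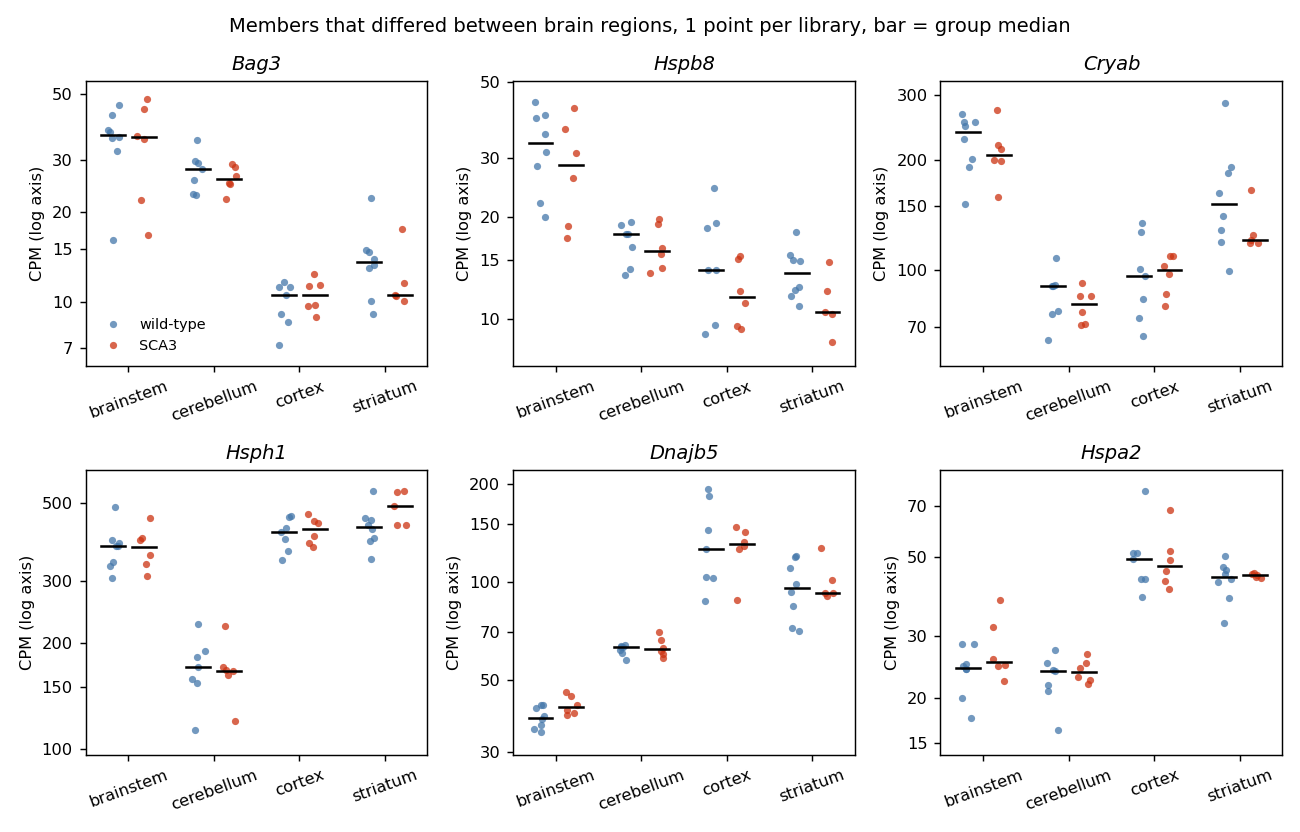
CPM of 6 members in every library on a log axis, by region and genotype, with the group median as a bar. Bag3, Hspb8 and Cryab are highest in brainstem, Hsph1 is lowest in cerebellum at 113 to 227 CPM in wild-type mice, Dnajb5 is lowest in brainstem and among wild-type libraries Hspa2 separates cortex and striatum from the other regions, with 1 SCA3 brainstem library at 37.9 CPM above the lowest striatal one.

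The 26 regional calls were made in wild-type mice, and the SCA3 libraries come from other animals. In them all 26 differences had the same sign, as had 99.7% of the 11492 calls over all genes. The log2 difference of a called gene changed by at most 0.209 between the genotypes. Bag3 differed by 1.18 in SCA3 brainstem and by -1.06 in SCA3 cortex, Hsph1 by -1.33 in cerebellum and Dnajb5 by -1.15 in brainstem. The SE of these differences in SCA3 libraries was 0.04 to 0.33.

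To ask whether mutant ataxin-3 alters the network, the genotypes were compared in every region separately. No member was differentially expressed in brainstem (1.92% of all genes were), cerebellum (0.0647%) or cortex (0.154%), and 1 of 44 was in striatum, where 7.54% of all genes were called and 5.47% were called lower. The combined test over the genotype effect in all 4 regions called 0 members (4.73% of all genes, lowest member FDR 0.223), and the test of whether the effect depends on the region called 0 (0.218% of all genes, lowest member FDR 0.52). At an unadjusted p under 0.05 of edgeR's likelihood ratio test there were 3 members in brainstem, 0 in cerebellum, 0 in cortex and 5 in striatum. These were 6.82% of the members in brainstem and 11.4% in striatum, against 13.3% of all genes in brainstem, 1.66% in cerebellum, 4.07% in cortex and 23.2% in striatum. In each of the joint tests 1 member had such a p, against 16.6% of all genes in the combined test and 9.09% in the test of region dependence. The median absolute log2 fold change of the members was 0.06 in brainstem, 0.04 in cerebellum, 0.04 in cortex and 0.07 in striatum, against 0.08, 0.04, 0.06 and 0.11 over all genes. In no region did the SCA3 and wild-type libraries of any member lie apart without overlap, but this count was not taken over all genes, so it cannot be set against them.

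The intervals show how large a difference these libraries leave room for, under a spread per gene that the fit pooled over regions. They do not hold the spread of each region by itself and can be too narrow where a gene varies more. For Hspa12a the wild-type level per kb was 17.9 ± 0.67 CPM (SD) in cerebellum and 23.6 ± 9.19 CPM in striatum. The 95% interval reached to either side of the estimate by a median of 0.160 in brainstem, 0.165 in cerebellum and in cortex and 0.168 in striatum on the log2 scale. The whole interval lay within ±0.5 for 40 members in brainstem, 42 in cerebellum, 41 in cortex and 38 in striatum, and within 1.2-fold either way for 26, 31, 28 and 20. It lay within ±1 for all 44 members in brainstem, cerebellum and cortex and for 43 in striatum. The exception was Hspa1b, whose striatal interval reached from -1.15 to 0.38. More members lay below 0 than above it in each region (27 and 17 in brainstem, 24 and 20 in cerebellum, 27 and 17 in cortex, 28 and 16 in striatum), with medians of -0.03, -0.0047, -0.02 and -0.04. Of all 12372 genes, 6068, 6535, 6340 and 6306 lay below 0 in these regions, with medians of 0.0028, -0.0043, -0.0024 and -0.0031.

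**Figure D2:**
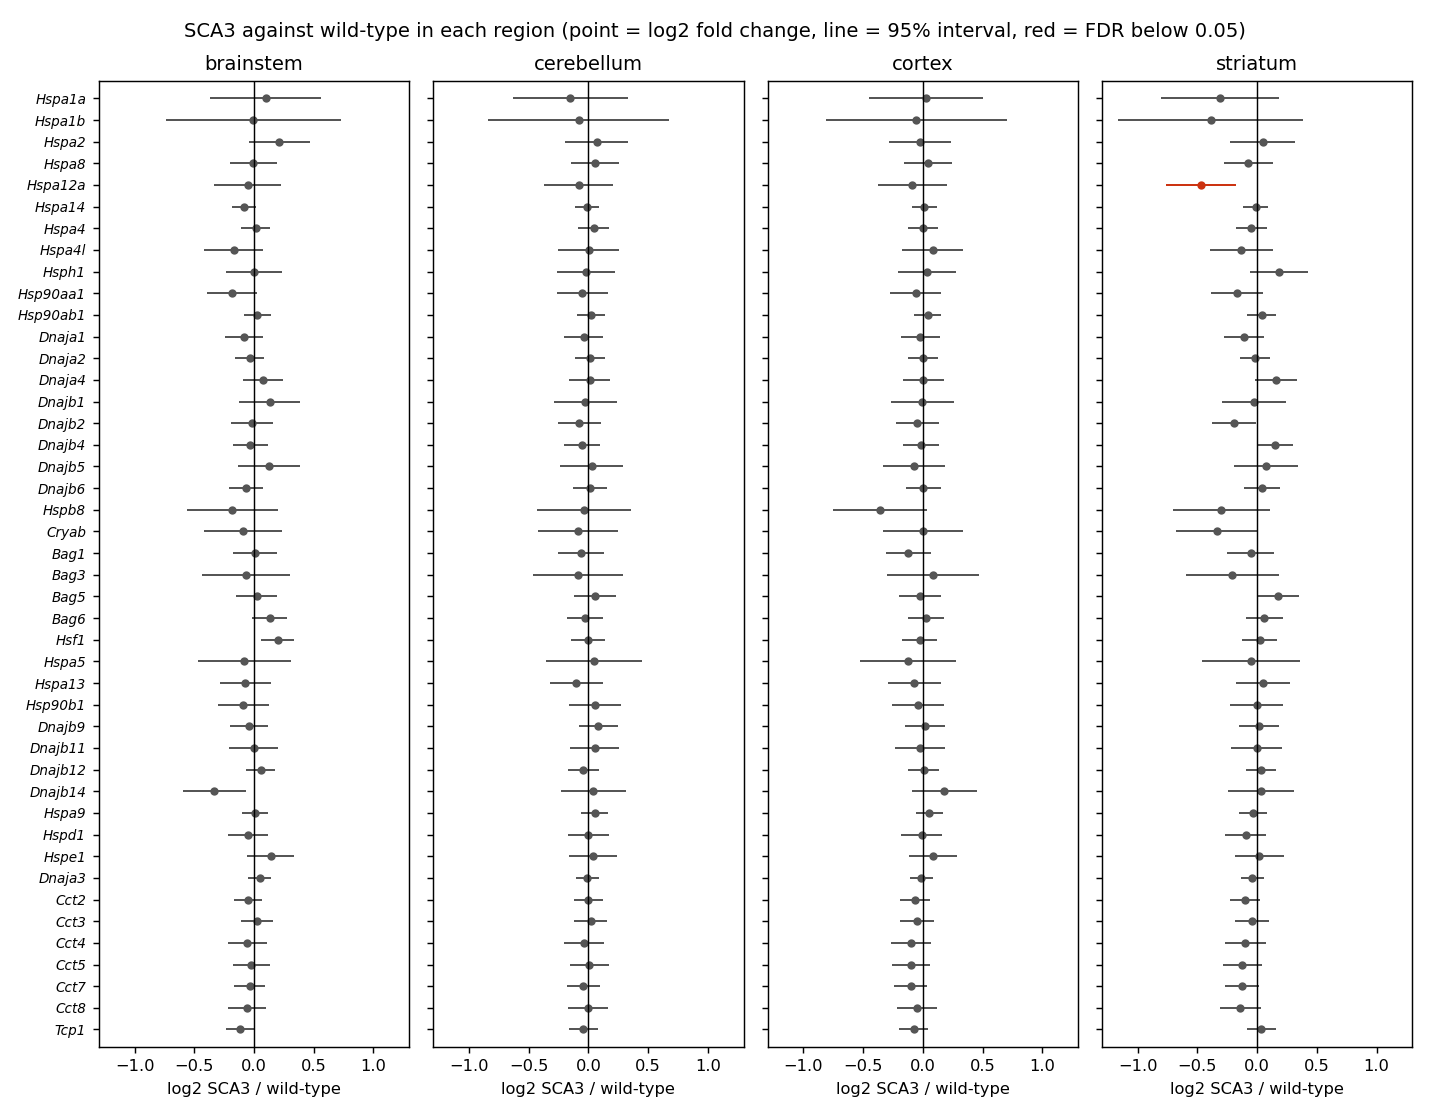
Log2 fold change of SCA3 over wild-type for the 44 members in each region, with 95% intervals, in the order of their roles. Points sit close to 0, the widest intervals belong to Hspa1a and Hspa1b, and Hspa12a in striatum, in red, is the 1 call.

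Hspa12a encodes a divergent Hsp70 of the brain without a known part in heat shock (chr19:58795750-58943654, minus strand). It overlaps Eno4 on the opposite strand. In striatum the 5 SCA3 libraries held 138, 138, 153, 166 and 187 CPM, and the 8 wild-type libraries held 144, 166, 174, 181, 199.5, 204, 254 and 409 CPM. The groups overlapped over most of the SCA3 range, and the wild-type library of mouse 7267059 stood far above the rest. The means were 156 ± 20.6 (SD, n = 5) and 217 ± 84.5 CPM (SD, n = 8), a log2 fold change of -0.47 ± 0.15 (SE, FDR 0.0292). In the other regions it was -0.05 in brainstem, -0.08 in cerebellum and -0.09 in cortex, none called, and the test of region dependence did not call Hspa12a.

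The Hspa12a call changed when single mice were left out and in the 2 covariate fits given here. Its values also moved with several marker lists, whose part in the call was not tested. Without mouse 7267059 it was -0.27 (FDR 0.183), with 477 genes called in all. Leaving out wild-type mouse 7267058 (-0.43, FDR 0.06) or SCA3 mouse 7267054 (-0.43, FDR 0.122), 7267056 (-0.46, FDR 0.106) or 9083515 (-0.43, FDR 0.125) also ended the call, with the fold change near that of all libraries and 297 to 558 genes called in all. Wild-type mice 7267059 and 7267058, the highest in Hspa12a, had the highest thalamus marker sums (2371 and 1615 CPM) and among the lowest sums of the striatal projection neuron markers (2035 and 3115 CPM). They also had the highest striatal sums of the mature oligodendrocyte markers (20810 and 15090 CPM, others 6572 to 13000 CPM) and of the choroid plexus markers (399.7 and 254 CPM, others 28.2 to 178 CPM). SCA3 mouse 9083515, the lowest in Hspa12a, had 130 CPM of the thalamus and 8075 CPM of the projection neuron markers. Over all libraries the deviations of Hspa12a had r = 0.786 with those of the general neuron markers. With the other lists r was -0.600 (projection neuron), 0.511 (astrocyte), 0.349 (oligodendrocyte) and 0.334 (thalamus). The striatal neuron sum was highest in mouse 7267059 (4902 CPM), then in SCA3 mouse 9083514 (4735 CPM), the highest SCA3 library in Hspa12a. With the mean of the thalamus markers as a covariate in the striatal libraries the fold change was -0.08 (FDR 0.946), and with that of the projection neuron markers -0.05 (FDR 1), both fits being chosen after the data were seen, while the striatal libraries without a covariate gave -0.47 (FDR 0.326). In striatum 7 of the 10 thalamus markers were called between the genotypes, with a median log2 fold change of -1.86. The mouse numbers fall into 3 series by their leading 4 digits. Within them the log2 ratio of mean CPM was -0.99 in the series of mouse 7267059 (3 wild-type and 2 SCA3 libraries), 0.0020 in that of mouse 9082857 (1 and 1) and -0.11 in that of mouse 9083515 (4 and 2).

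**Figure D3:**
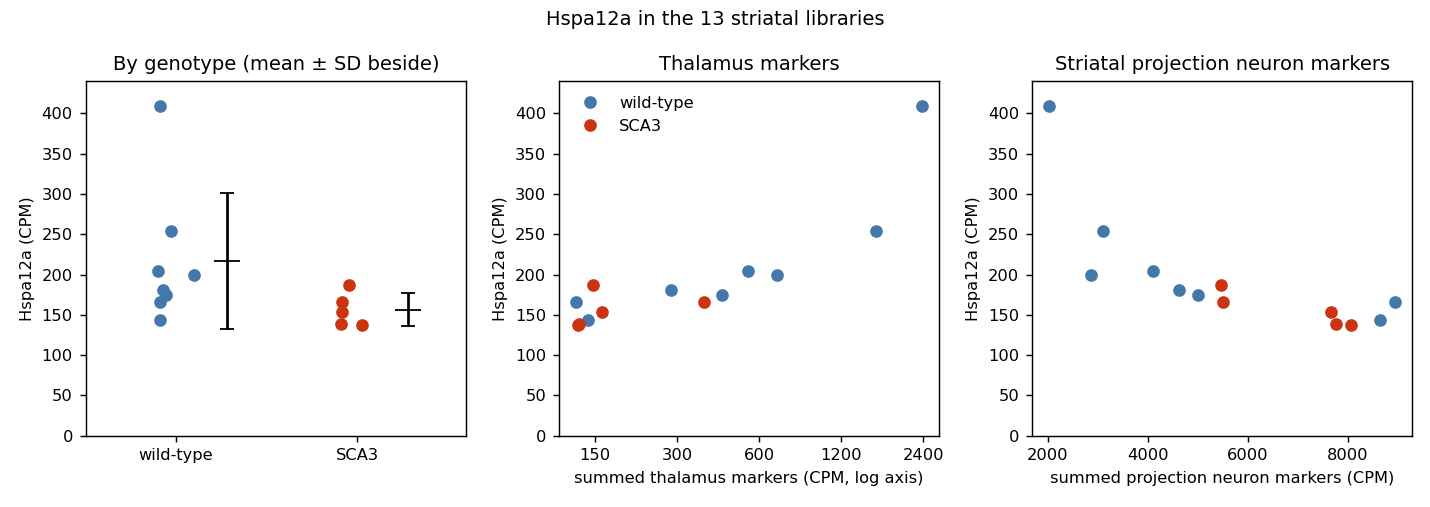
Hspa12a in the 13 striatal libraries in CPM, by genotype with mean and SD (left), against the summed thalamus markers on a log axis (middle) and against the summed striatal projection neuron markers (right), each point being a library. The wild-type libraries at 254 and 409 CPM lie at the upper end of the thalamus markers and towards the lower end of the projection neuron markers.

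Among the cytosolic Hsp70 genes Hspa12a was called in striatum and the 5 others in no region. Hspa8 held 725 to 1073 CPM in wild-type and 762 to 947 CPM in SCA3 brainstem, and its log2 fold changes lay between -0.07 and 0.05 over the 4 regions. For the stress-inducible Hspa1a the brainstem values were 5.55 to 15.2 CPM (median 9.33) in wild-type and 5.55 to 15.7 CPM (median 8.74) in SCA3 mice, an overlap of nearly the whole range. Its log2 fold change ran from -0.31 (striatum) to 0.10 (brainstem), and that of Hspa1b from -0.39 (striatum) to -0.0050 (brainstem). Their biological coefficients of variation, the relative spread between mice beyond counting error, were 0.296 and 0.472, the highest among the 44, so that changes of these genes are the least well bounded. Hspa1a and Hspa1b are near-identical copies, reads that fit both were dropped by the alignment, and their separate levels are uncertain.

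Of the Hsp90 genes, Hsp90ab1 lay between 0.02 and 0.04 in all 4 regions with an SE of 0.05 to 0.06, and Hsp90aa1 between -0.18 ± 0.10 (brainstem, 95% interval -0.38 to 0.02, FDR 0.43) and -0.05. Hsp90aa1 gave 549 to 675 CPM in SCA3 brainstem (median 591) and 616 to 837 CPM in wild-type brainstem, overlapping ranges. Of the Hsp110 genes Hsph1 was at 0.18 ± 0.12 in striatum (FDR 0.359), with 432 to 540 CPM in SCA3 and 347 to 541 CPM in wild-type libraries, and Hspa4l lay between -0.17 (brainstem) and 0.08 (cortex). None of the 8 cytosolic J proteins was called. Dnajb2, a J protein of neurons that sorts clients to the proteasome, gave the smallest striatal p among them at -0.19 ± 0.09 (FDR 0.17), with 128 to 163 CPM in SCA3 and 118 to 224 CPM in wild-type libraries.

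The small heat shock genes were below 0 in all 4 regions and called in none. Cryab was at -0.34 ± 0.17 in striatum (FDR 0.213) and between -0.09 and -0.0020 in the other regions. In striatum the mature oligodendrocyte markers had a median log2 fold change of -0.47, with 5 of 12 called, and in brainstem of -0.48, with 3 of 12 called. Their part in the Cryab values was not tested. Hspb8 was at -0.36 ± 0.20 in cortex, the lowest value of a member there, with 9.36 to 15.4 CPM in SCA3 and 9.03 to 24.4 CPM in wild-type libraries. Bag3 lay between -0.21 (striatum, FDR 0.549) and 0.09 (cortex).

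Hsf1 (chr15:76477422-76501913, plus strand) came closest to a call in brainstem. The 6 SCA3 libraries held 42.7, 44.8, 44.8, 44.9, 45.7 and 53.6 CPM, and the 8 wild-type libraries held 36.0, 36.6, 38.1, 39.4, 40.1, 43.2, 43.3 and 44.5 CPM. All but 1 of the SCA3 libraries were above all wild-type ones, with the library of mouse 9083513 within the wild-type range. The log2 fold change was 0.20 ± 0.07 (FDR 0.102), and it was -0.0075, -0.03 and 0.02 in cerebellum, cortex and striatum. RIN differed between these brainstem groups, with a median of 7.9 in SCA3 and 7.3 in wild-type libraries. With RIN as a covariate the value was 0.17 (FDR 0.257). The highest library, of SCA3 mouse 9083514, was among those with high thalamus sums, and without those 4 libraries the value was 0.19 (FDR 0.470, with 99 genes called in all). Over 26 alternatives the brainstem value of Hsf1 stayed between 0.14 and 0.22 and passed in 0 of them (lowest FDR 0.0539).

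Of the endoplasmic reticulum members, Dnajb14 gave the lowest brainstem value. The SCA3 libraries held 17.6, 18.9, 20.8, 22.8, 25.7 and 30.3 CPM, against 25.7, 25.8, 25.8, 27.1, 28.4, 29.2, 30.9 and 36.0 CPM in wild-type libraries. The groups overlapped through SCA3 mouse 7267056, without which the gene was called (-0.43, FDR 0.0425, against -0.33 ± 0.13 and FDR 0.194 with it). Without the 4 brainstem libraries with high thalamus sums it was -0.24 (FDR 0.893). The part of those libraries in these values was not tested. It overlaps the antisense gene Gm40155, and reads of both strands were counted together. Hspa5, the main Hsp70 of the endoplasmic reticulum and a marker of the unfolded protein response, was at -0.08 in brainstem, 0.04 in cerebellum, -0.12 in cortex and -0.05 in striatum. Dnajb9, a J protein induced by the same response, lay between -0.05 and 0.08.

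The mitochondrial members Hspa9, Hspd1, Hspe1 and Dnaja3 ran from -0.10 (Hspd1 in striatum) to 0.14 (Hspe1 in brainstem). Chaperonin subunits were all below 0 in cortex, between -0.10 (Cct7) and -0.05 (Cct8), and 6 of 7 were below 0 in striatum and brainstem, with 0 called in any region. The subunits varied together between libraries (median r = 0.752), so their common sign is not 7 separate observations. Cct7 gave 155 to 180 CPM in SCA3 and 155 to 202 CPM in wild-type cortex.

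A further list of 64 chaperone genes outside the 44, of which 62 were in the table, was examined in the same fit. Between the genotypes 0 were called in brainstem, cerebellum and cortex and 1 in striatum, where 1.92%, 0.0647%, 0.154% and 7.54% of all genes were called. An unadjusted p under 0.05 in striatum was held by 14 of the 62 (22.6%), against 23.2% of all genes and 11.4% of the 44 members. The called gene was Dnajc1, a J protein of the endoplasmic reticulum, which was higher in SCA3 (0.34, FDR 0.000723) and was also the 1 gene of the list called in the combined test (FDR 0.00757). The median log2 fold change of the list was -0.0056, 0.0074, -0.01 and -0.06 in brainstem, cerebellum, cortex and striatum. Between regions 3 were higher in brainstem, 5 higher and 4 lower in cerebellum, 2 higher and 1 lower in cortex, and 1 higher and 2 lower in striatum, each a smaller share of the 62 than the share of all genes given above for that region and direction. The widest regional differences belonged to Fkbp5, an Hsp90 co-chaperone that glucocorticoids raise, with -1.57 in cerebellum (FDR 8.03e-37), 0.84 in cortex and 0.89 in striatum.

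The inducible members differed between mice of a genotype in several regions at once. The mean log2 deviation from the group mean was taken over 12 members listed as heat-inducible (Hspa1a, Hspa1b, Hspa8, Hspa4l, Hsph1, Hsp90aa1, Hspd1, Hspe1, Dnaja1, Dnajb1, Dnajb4 and Bag3). Hspa8 is in this list although it is the constitutive Hsp70 named above. Wild-type mouse 9082857 was the highest of all mice in brainstem (0.40), cerebellum (0.30) and cortex (0.18), and SCA3 mouse 9082853 was the second in each of these (0.38, 0.24 and 0.17) and the highest in striatum (0.40). Wild-type mouse 9083375 was low in all 4 regions, between -0.30 and -0.26, and SCA3 mouse 9083513 low in its 3 regions, between -0.28 and -0.18. In Hspa1b this amounted to 19.2 CPM in brainstem of mouse 9082857 and 20.8 CPM in that of mouse 9082853, against wild-type and SCA3 medians of 7.78 and 6.25 CPM. These shifts were not particular to the inducible members. The mean deviation of the endoplasmic reticulum members was 0.08 to 0.19 in mouse 9082857 and 0.11 to 0.29 in mouse 9082853. It was -0.25 to -0.12 in mouse 9083375 and -0.19 to -0.16 in mouse 9083513. Hspa5, which is outside the list, had the highest r of any member with the inducible mean (0.887). The high mice were thus 1 of each genotype. They were also the 2 mice of one number series and the 2 mice aged 77 weeks, where all others were 74 or 75 weeks old, so age, series and mouse cannot be told apart. With the series as a covariate, or without either mouse, 0 members were called between genotypes in brainstem, cerebellum and cortex. In striatum the count went from 1 to 3 without mouse 9082857 (Hspa12a, Dnaja4 and Bag5), while the calls over all genes went from 933 to 1833.

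**Figure D4:**
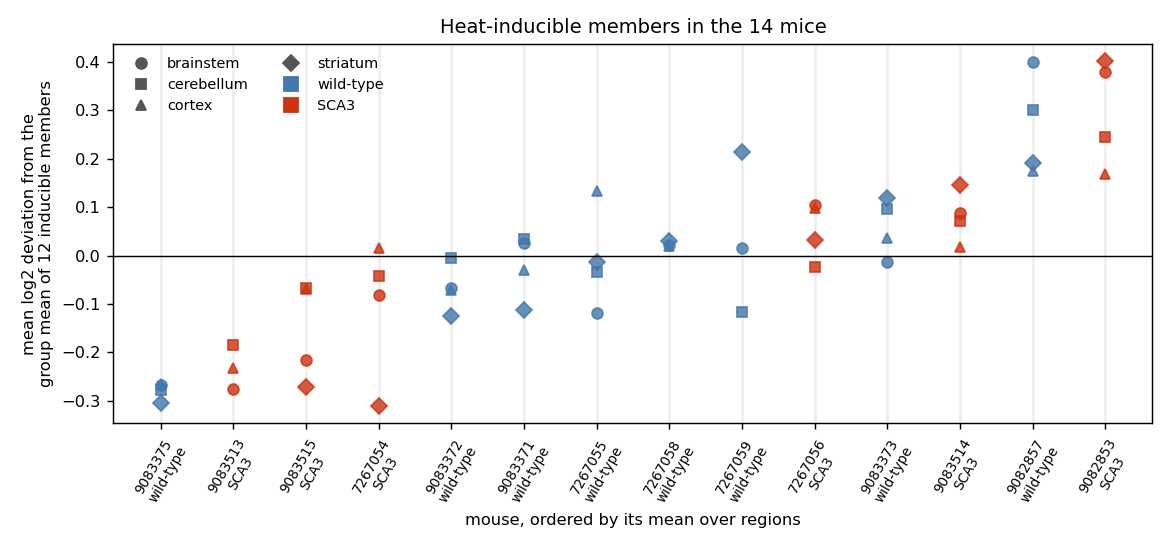
Mean log2 deviation of 12 heat-inducible members from their group mean for each mouse, ordered by the mean over regions, with a symbol per region and a colour per genotype. Mice 9082857, 9082853 and 9083514 are above 0 in all 4 regions and mice 9083375, 9083515 and 9083372 are below 0 in all 4, while both genotypes are spread over the whole order.

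The deviations of the members also showed which of them vary together. Correlations are given as descriptions over 53 libraries, which share mice and, within a library, depth. The median r over all 946 pairs of members was 0.265, against -0.0050 over pairs of every 25th gene of the table. The 21 pairs of chaperonin subunits had a median r of 0.752 (range 0.627 to 0.884), the 66 pairs of inducible members 0.493, and the 15 pairs of cytosolic Hsp70 genes 0.0050. The most alike pairs were Hspa1a and Hspa1b (r = 0.927, and 0.884 without mice 9082857 and 9082853), Hspa5 and Hsp90b1 (0.903 and 0.873) and, within the chaperonin, Cct2 and Cct4 (0.884). The lowest pair was Dnajb9 and Bag6, a BAG protein of the nucleus and cytosol, at -0.754. Hsf1 had a median r of -0.190 with the 12 inducible members, between -0.582 and 0.310, against -0.225 with all 43 other members, and was most like Bag6 (r = 0.790).

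**Figure D5:**
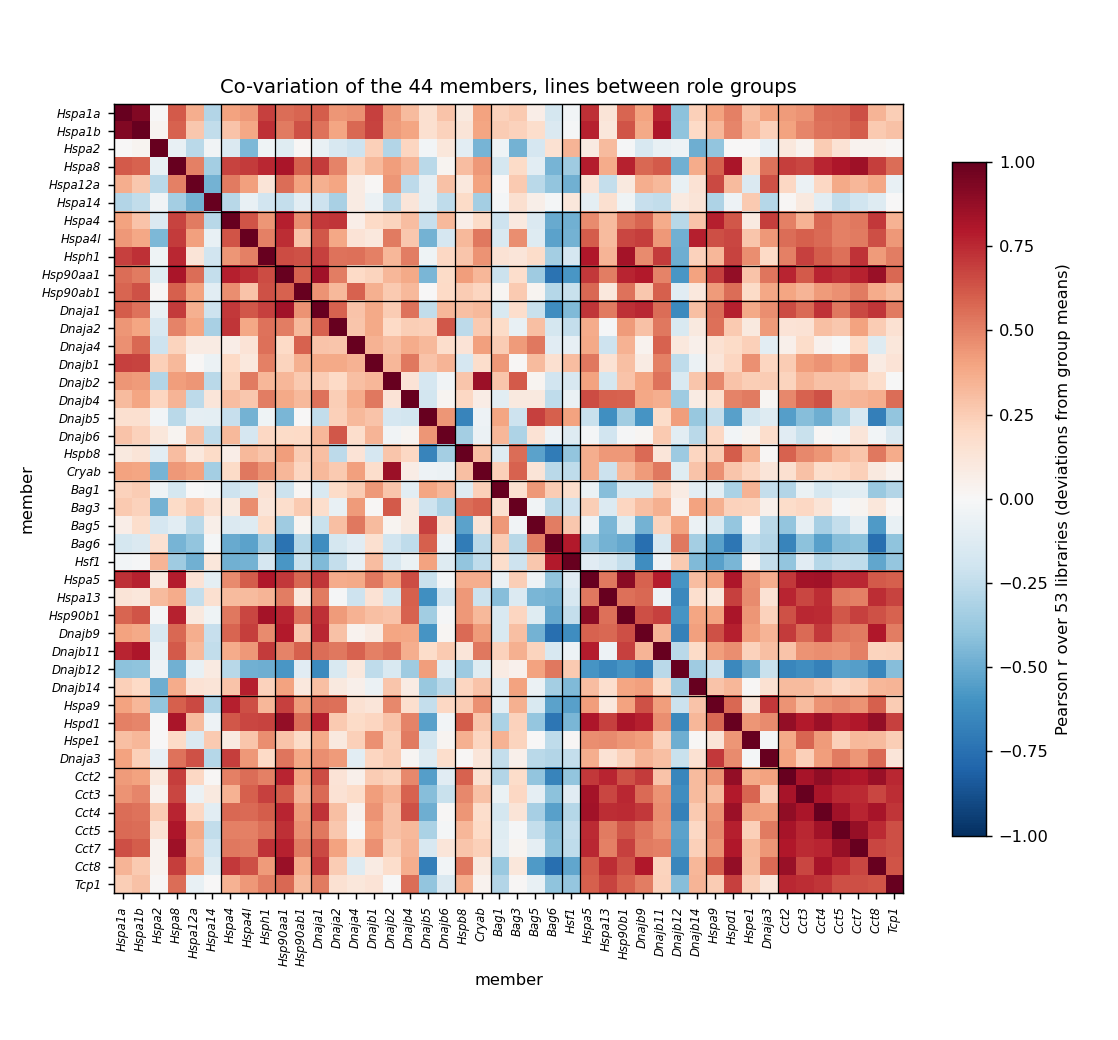
Pearson correlation of the 44 members over 53 libraries, from log2 CPM deviations from the 8 group means, with lines between role groups. The chaperonin block in the lower right corner is positive throughout, Hspa1a and Hspa1b form the darkest pair off the diagonal, and Bag6, Hsf1 and Dnajb12 show negative values with many members.

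The windows upstream of the members' start sites were searched for elements known to bind the factors of the heat shock and endoplasmic reticulum stress responses, and most windows held none of them. Promoter sequence was taken from RefSeq (GRCm38.p6) and the 250 bases before each start were searched on both strands. Entries were found for 36 of 44 members, and Cct4, Cryab, Hsf1, Hsp90aa1, Hsp90ab1, Hspa13, Hspa8 and Hspa9 had none. The endoplasmic reticulum stress element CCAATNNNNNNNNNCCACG was present for 2 members, Hspa5 and Hsp90b1, the closely co-varying pair, and in 37 of all 32851 RefSeq promoter entries (0.113%). Of the 9474 genes of the count table with an entry, 15 held it (0.158%). The sites are shown with the element in capitals and 5 bases on each side, because these genes were the pair of the endoplasmic reticulum that varied most alike. The first lies at chr2:34772020-34772048 (plus strand), 65 to 47 bases before the start, and the Hsp90b1 sites at chr10:86705633-86705661 and chr10:86705528-86705556 (minus strand), 212 to 194 and 107 to 89 bases before it, the nearer one holding the element in the opposite orientation.
Hspa5: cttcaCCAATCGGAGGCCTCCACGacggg
Hsp90b1, far site: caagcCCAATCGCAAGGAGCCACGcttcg
Hsp90b1, near site: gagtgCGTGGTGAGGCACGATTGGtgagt

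A heat shock element of 3 units, GAANNTTCNNGAA, was present for 3 members, Hspd1, Hspe1 and Dnajb6, and in 153 of all promoter entries (0.466%) or 47 of these 9474 genes (0.496%). The shorter element of 2 units, GAANNTTC, which the longer one contains, was present for 8 members (Hspa1a, Hspa1b, Hspd1, Hspe1, Dnaja1, Dnaja4, Dnajb6 and Cct2) and in 6.69% of all promoter entries or 5.97% of these genes. Hspd1 and Hspe1, the mitochondrial chaperonin and its lid, are transcribed in opposite directions from 1 shared window, and the same bases at chr1:55088054-55088081 are shown from the Hspe1 strand (plus), with 2 overlapping matches in capitals, because this is the longest run of such units among the members. Hspd1 and Hspe1 had r = 0.439. The windows of Hspa1a (chr17:34972223-34972290) and Hspa1b (chr17:34959305-34959372, both minus strand) are shown because they are alike in these 68 bases and in 247 of the 250 searched, with the element of 2 units in capitals. Hsph1, Dnajb1 and Bag3 do not hold these letters in the window searched, and nothing follows from that for Hsf1.
Hspe1: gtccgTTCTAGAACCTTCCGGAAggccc
Hspa1a: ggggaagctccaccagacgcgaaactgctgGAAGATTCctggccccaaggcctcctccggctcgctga
Hspa1b: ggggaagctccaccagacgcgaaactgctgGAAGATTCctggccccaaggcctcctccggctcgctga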

How the data were processed

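Poly-A RNA was sequenced in 53 libraries. The authors trimmed reads with cutadapt 1.10, kept unique STAR 2.3.0e alignments to GRCm38 and counted reads per gene with HTSeq 0.6.1 without regard to strand, and they kept genes by mean CPM. The deposited values are counts per gene of each library, so overlapping or antisense genes are not separated.

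Counts were fitted with edgeR 4.0.16 (R 4.3.3, glmFit and glmLRT, TMM, all libraries, 12372 genes, Benjamini-Hochberg FDR below 0.05, regional contrasts with a minimum log2 difference of 0.5). Log CPM values used a prior count of 2. limma 3.58.1 and DESeq2 1.42.0 served as alternatives. The same mice gave libraries of several regions, so mouse pairs libraries across regions, not genotypes. The mean correlation of a mouse's deviations between 2 regions was 0.0904 to 0.186 over 12 to 13 mice. The fit held no term for the mouse and used a single dispersion per gene for all groups. P-values thus measure the spread between libraries within groups, pooled over regions. In the regional, combined and region-dependence tests the libraries of a mouse counted as separate.

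The members and lists were chosen with earlier results of these data known. Members given in full were those called between genotypes, the 2 with the smallest p in each region, the highest and lowest in each regional contrast, the 4 with the highest CPM, Hsf1, Hspa1a and Hspa1b. The other members were named after their values were seen.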

Additional observations from a re-analysis of the deposited data

Results flagged for a closer look

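Among the 17 members given in full, 20 of 136 groups of a region and genotype (14.7%) held a library that stood apart from the rest by Dixon's criterion, where chance gives about 1 in 20. Of these, 12 came from mice 9082853 and 9082857.

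In SCA3 mouse 9082853 the striatum held the highest Bag3 (17.54 CPM, others 10.05 to 11.6), Dnajb2 (163.4 CPM) and Dnajb9 (60.74 CPM) of its group and the lowest Hsf1 (45.07 CPM). Its cerebellum held the highest Hspa1a (7.771 CPM) and Hspa1b (9.285 CPM). In wild-type mouse 9082857 the brainstem was the highest of its group for Hsp90aa1 (837.4 CPM), Hsp90ab1 (2107 CPM), Hspa1a (15.23 CPM), Hspa1b (19.25 CPM) and the mitochondrial Hsp70 gene Hspa9 (356.5 CPM), and the cerebellum for Hspa1b (10.18 CPM).

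Wild-type mouse 7267059 was the highest of its group for Hspa12a (409.4 CPM) and Bag3 (22.28 CPM) in striatum and for Dnajb14 in cerebellum (29.02 CPM). Wild-type mouse 7267055 was the lowest for Bag3 in brainstem (16.11 CPM, others 32.02 to 45.94) and for Hsf1 in cortex (42.11 CPM). SCA3 mouse 7267056 was the lowest for Dnajb5 in cortex (87.65 CPM, others 125.8 to 147.3). Wild-type mouse 9083375 was the lowest for Hspa8 in cerebellum (477 CPM), and SCA3 mouse 9083514 the highest for Hsf1 in brainstem (53.65 CPM).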

How the results depend on the processing

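The striatal count of members called between genotypes fell from 1 to 0 with RIN of at least 7 (49 libraries, 139 of all genes called against 933), with limma-voom and no replicate block (696 genes), with limma-voom and the mouse as a random replicate block (713 genes), and in the striatal libraries alone (88 genes). It was also 0 with the thalamus (69 genes) or the projection neuron markers (34 genes) as a covariate, both chosen after seeing the data. The cause was not tested. With single mice left out it ranged from 0 to 3 in striatum, where 297 to 1833 of all genes were called, and from 0 to 1 in brainstem (309 genes called in all where it was 1). For Hspa12a the blocked fit gave -0.42 (FDR 0.0588), limma-voom without the block -0.41 (FDR 0.063), RIN of at least 7 -0.40 (FDR 0.224), DESeq2 -0.47 (FDR 0.0228) and the quasi-likelihood test an FDR of 0.0415, with 16 of 27 alternatives calling it and values from -0.54 to -0.05.

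Without a minimum log2 difference the regional counts were 35 in brainstem, 32 in cerebellum, 20 in cortex and 17 in striatum, against 8675, 9113, 7373 and 6805 of all 12372 genes. With the mouse as a fixed replicate block they were 7, 9, 7 and 4, the added member being Hspa1a in cortex, with 2846, 4079, 2322 and 2110 of all genes called against 2882, 4112, 2424 and 2074 without the block. Without the 4 brainstem libraries with high thalamus sums, chosen after seeing the data, they were 8, 10, 6 and 5, with 3202, 4144, 2479 and 2097 of all genes. Of 1751 repeated values of single named members 16 kept a call, 11 lost and 1 gained one, 0 reversed one, and 115 of the 1723 uncalled under both settings changed sign. The bounds were widest for Hspa1a and Hspa1b, the members with the largest spread between mice.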

Other observations

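In wild-type cerebellum the summed choroid plexus markers ran from 19.6 to 2118 CPM with a median of 140 CPM, and in SCA3 cerebellum from 658 to 1998 CPM with a median of 1138 CPM. Dnajc1, the chaperone gene outside the 44 that was called in SCA3 striatum, was lower in wild-type brainstem than in the other regions (log2 -0.41, FDR 1.29e-12). Dnajc4 was higher in cerebellum (0.82, FDR 3.7e-49) and Dnajc21 in brainstem (0.81, FDR 4.43e-07).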
